A study of Mus musculus with 8 samples.

Results

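Rab GTPases are the small GTP-binding proteins that direct vesicle traffic between the membranes of a cell. Here they were taken as every gene whose symbol in the array's probe annotation is Rab followed by a number and at most a letter and a further number, which leaves out their effectors and regulators. The rule found 57 genes among the 16593 genes named on the array, read by 87 probes, and 48 of them were detected well enough to be tested. In kidneys of *Pkd1V/V* mice at postnatal day 10, 10 of these 48 genes were higher and 3 were lower than in wild-type littermates, and the other 35 did not pass the test. The largest differences were those of *Rab15*, *Rab7b* and *Rab19* among the higher genes and of *Rab3b*, *Rab17* and *Rab34* among the lower ones.

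A Rab protein switches between a GDP-bound form, held in the cytosol, and a GTP-bound form on a membrane, where it recruits motors, tethers and other effectors to a vesicle. Exchange factors load GTP, GTPase-activating proteins end the signal, and an escort protein and a prenyl transferase attach the lipid anchors. Each compartment has its own Rabs, so that *Rab5* members mark early endosomes, *Rab7* late endosomes and *Rab11* members recycling endosomes, and in tubule epithelium they carry transporters and receptors to the apical or basolateral surface and cargo to the primary cilium.

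Total RNA of whole kidneys was measured on BeadChip arrays (Illumina MouseRef-8 v2.0), 1 kidney to an array. There were 4 *Pkd1V/V* kidneys, described as cystic, and 4 wild-type kidneys, all taken at postnatal day 10 and numbered 1 to 4 in each group. *Pkd1V/V* is a hypomorphic allele of *Pkd1*, the gene that encodes polycystin-1, and not a loss of the gene. The methods describe the kidneys as coming from separate mice, and the labels give neither sex nor litter.

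Signals are given in array units after background subtraction and quantile normalization. Fold changes are on the scale of log2(signal + 16), *Pkd1V/V* minus wild-type, which understates the change of dim genes. The test took the genes with a detection p below 0.05 on 3 or more of the 8 arrays, 9833 in all. A gene counted as called if limma gave it a p under 0.1 after Benjamini-Hochberg adjustment over these genes. The arrays detected 51.8 to 54.3% of their probes, and each Rab probe was read on 20 to 63 beads per array. The number of arrays limits the precision. The signal of *Pkd1* was 101 ± 31.7 (SD, n = 4) in mutant and 117 ± 25.0 (n = 4) in wild-type kidneys, a log2 difference of -0.20 ± 0.22 (SE) with an adjusted p of 0.545 in limma, and since a hypomorphic allele need not lower the transcript this does not check the genotype.

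Whole kidney holds many cell types, and their marker lists moved between the groups. The summed signal of the proximal tubule markers was 7765 to 15120 in mutant and 34330 to 40050 in wild-type kidneys, with 11 of 11 tested markers lower. The sum of the macrophage and leukocyte markers was 3834 to 14800 in mutant and 1526 to 1857 in wild-type kidneys, with 7 of 8 tested markers higher and with *Ptprc*, *Itgam*, *Itgb2* and *Cd3e* not detected on any array. The highest of these sums, 14800, was in mutant kidney 1. The principal cell markers summed to 8344 to 14390 in mutant and 6590 to 6975 in wild-type kidneys, with 5 of 8 higher and *Avpr2* not detected. The hepatocyte sum was 89410 in wild-type kidney 4 and 8871 to 10800 in the other wild-type kidneys, with *Alb* and *Fgb* not detected on any array, and was 2569 to 4180 in the mutants. Outside wild-type kidney 4 most of it was *Ttr*, at 1616 to 3601 in the mutants and 7653 to 9892 in the other wild-type kidneys. Of the 8 tested hepatocyte markers 4 were lower. Of the other lists, the sums for thick ascending limb, distal convoluted tubule, intercalated cells, podocytes and endothelium were lower in every mutant kidney than in every wild-type kidney (endothelium 5075 to 6478 against 9796 to 10680). In that order, 5 of 6, 2 of 3, 2 of 5, 2 of 3 and 6 of 8 tested markers were called lower. For intercalated cells these were *Slc4a1* and *Slc26a4*, and the other 3 were not called, at -0.60 to 0.41. *Calb1*, *Atp6v0d2*, *Aqp6* and *Kdr* of these lists were not detected on any array. The sum for fibroblasts and smooth muscle was higher in every mutant kidney (32030 to 35460 against 19760 to 24690). Its markers went both ways, with 4 of 8 tested markers higher and 2, *Dcn* and *Pdgfra*, lower. The sums for urothelium and pancreatic acinar cells overlapped. In bulk tissue, fewer cells of a type and less RNA per cell cannot be told apart. The part of these cell types in the results on the Rab genes was not tested.

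Over all tested genes, 16.8% were called higher and 15.8% lower. Of the Rab genes 20.8% were called higher and 6.25% lower, and whether these shares differ from those of all genes was not tested. The median log2 difference was 0.02 over the 48 Rab genes and 0.02 over all tested genes. On the scale used, only *Rab15* and *Rab7b* were called with a log2 difference of at least 1 in size. This depends on the offset for dim genes: with an offset of 4 in place of 16, *Rab3b* stood at -1.51 and *Rab17* at -1.003. The share of all tested genes called with a change of at least 2-fold was 4.26% for higher and 4.56% for lower genes.

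**Figure D1:**
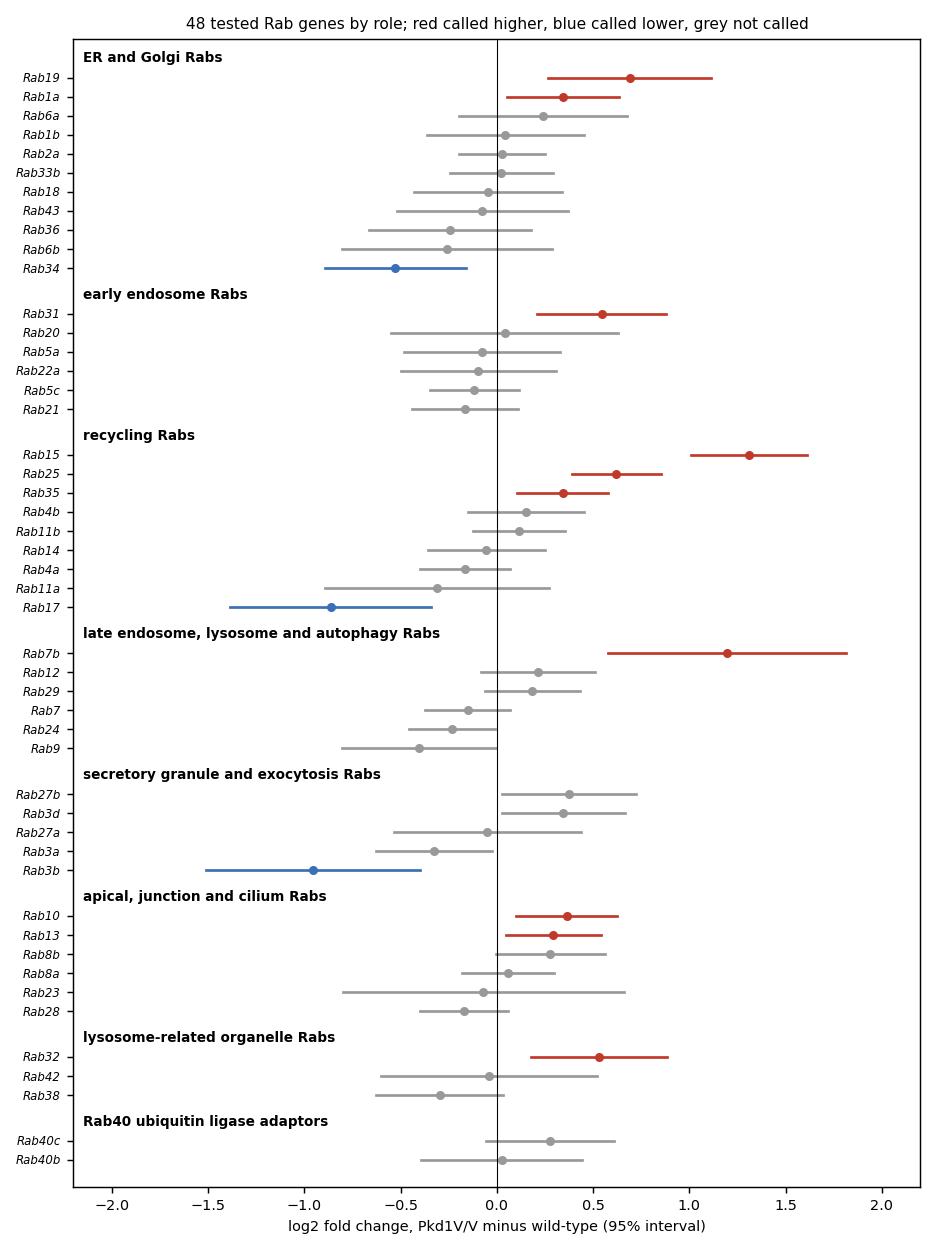
Log2 fold change of each of the 48 tested Rab genes, *Pkd1V/V* minus wild-type on the horizontal axis, with its 95% interval as a line, arranged by the role of the protein. The 10 red genes were called higher, the 3 blue genes lower and the 35 grey genes were not called. Called genes lie in most of the roles, beside members of the same role that were not called.

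The role groups below are small, and their counts were not tested against the 16.8% higher and 15.8% lower of all tested genes. The genes whose proteins return cargo from endosomes to the cell surface held 3 of the 10 higher genes, *Rab15*, *Rab25* and *Rab35*, and 1 of the 3 lower genes, *Rab17*, out of 9 tested. *Rab15* encodes a Rab that acts between early and recycling endosomes. Its signal was 1334, 921, 1111 and 1076 in mutant kidneys 1 to 4 and 392, 452, 480 and 419 in wild-type kidneys 1 to 4. Each mutant kidney lay well above every wild-type kidney, and the wild-type values lay close together. The means were 1111 ± 170.0 and 436 ± 38.5 (SD, n = 4 each), and the log2 difference of 1.31 ± 0.14 (SE) had an adjusted p of 0.000259 in limma, the smallest among the Rab genes.

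*Rab25* encodes the member of the Rab11 subfamily that is largely restricted to epithelia, where it acts in apical recycling. It read 380, 332, 395 and 350.5 in the mutant kidneys and 223, 233, 229 and 238 in the wild-type kidneys. The wild-type values were nearly alike and all 4 mutant values stood above them, and the log2 difference was 0.62 ± 0.10 (adjusted p = 0.00229, limma). *Rab35* encodes a Rab of fast endocytic recycling that also acts in cytokinesis. Its signals were 1241, 1258, 1180 and 1067 in the mutant and 885, 940, 905 and 999 in the wild-type kidneys. The groups did not overlap, but mutant kidney 4 and wild-type kidney 4 lay close together, and the log2 difference was 0.34 ± 0.11 (adjusted p = 0.0419, limma).

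*Rab17*, which encodes an epithelial Rab of apical recycling and transcytosis, went the other way. It read 99.7, 30.9, 55.0 and 59.8 in the mutant kidneys and 122, 118, 125 and 106 in the wild-type kidneys. The groups did not overlap, although mutant kidney 1 lay just under the lowest wild-type kidney and mutant kidney 2 far under it. On the log2 scale it changed by -0.86 ± 0.23 (adjusted p = 0.0234, limma). A further probe of *Rab17* gave 55.7, 53.6, 35.6 and 30.7 against 103, 78.8, 111 and 97.5, with no overlap and a log2 difference of -0.94 ± 0.17 (adjusted p = 0.00381 in limma over all probes).

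The other 5 recycling Rabs did not pass the test. *Rab11a*, which encodes the Rab of the recycling endosome, varied most: it read 186, 182, 295 and 263 in the mutant and 409, 227, 375 and 188 in the wild-type kidneys. The groups overlapped over most of their range, and the 95% interval of its log2 difference ran from -0.89 to 0.27. The close relative *Rab11b* read 5343 to 5819 in the mutant and 4682 to 5691 in the wild-type kidneys, with an interval from -0.12 to 0.35. *Rab4a* and *Rab4b*, of the fast route back to the surface, had log2 differences of -0.17 and 0.15 (adjusted p = 0.290 and 0.457, limma).

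Among the 11 tested Rabs of the endoplasmic reticulum and Golgi, *Rab19* and *Rab1a* were higher and *Rab34* was lower. *Rab19*, a little-studied member, read 97.3, 43.9, 64.7 and 62.8 in the mutant and 31.6, 37.4, 41.6 and 27.7 in the wild-type kidneys. Mutant kidney 1 was the highest and mutant kidney 2 lay just above the highest wild-type kidney. This gave a log2 difference of 0.69 ± 0.19 (adjusted p = 0.0253, limma). *Rab1a*, which encodes the Rab of transport from the endoplasmic reticulum to the Golgi, had a log2 difference of 0.34 ± 0.13 (adjusted p = 0.0847, limma), but its groups overlapped, since wild-type kidney 3 read 434 and mutant kidney 2 read 401. It kept its call only without mutant kidney 2 or without wild-type kidney 3. Leaving out any of the other 6 kidneys in turn (mutant kidneys 1, 3 and 4, wild-type kidneys 1, 2 and 4) gave adjusted p-values of 0.142 to 0.182 in limma.

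*Rab34* encodes a Golgi-associated Rab that positions lysosomes and takes part in the formation of primary cilia. It read 529, 669, 738 and 732 in the mutant kidneys and 1156, 800.3, 1088 and 847 in the wild-type kidneys. The groups did not overlap, and wild-type kidneys 1 and 3 stood apart above the other two. On the log2 scale the difference was -0.53 ± 0.16 (adjusted p = 0.0407, limma), and the call was lost without wild-type kidney 1, at -0.44 (adjusted p = 0.1005), or without wild-type kidney 3, at -0.47 (adjusted p = 0.108). *Rab36*, its closest relative, had a log2 difference of -0.24 (adjusted p = 0.389, limma), and *Rab6a* and *Rab6b*, of retrograde Golgi transport, had differences of 0.24 and -0.26 (adjusted p = 0.416 and 0.481, limma).

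In the early endosome group 1 of 6 tested genes was called. *Rab31* encodes a relative of *Rab22a* that acts between the trans-Golgi network and endosomes. It read 1308, 966, 933 and 965 in the mutant and 604, 831, 733 and 665 in the wild-type kidneys. All mutant kidneys lay above all wild-type kidneys, 3 of them within a narrow band and mutant kidney 1 well above it. The log2 difference was 0.54 ± 0.15 (adjusted p = 0.0254, limma), and without mutant kidney 1 it was 0.43 (adjusted p = 0.0506, limma). *Rab5c*, which encodes an isoform of the Rab that drives early endosome fusion, read 3240 to 3733 in the mutant and 3460 to 3886 in the wild-type kidneys, with a 95% interval of the log2 difference from -0.35 to 0.11. *Rab21*, of integrin endocytosis, had a difference of -0.17 (adjusted p = 0.360, limma).

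Of the 6 tested Rabs of late endosomes, lysosomes and autophagy, *Rab7b* was called. It encodes a Rab of transport from late endosomes to the trans-Golgi network, a different step from that of *Rab7*. Its signals were 99.3, 44.0, 34.9 and 38.1 in the mutant and 6.65, 12.6, 24.9 and 10.0 in the wild-type kidneys. It was detected on all 4 mutant arrays but on only 1 wild-type array, so it passed the detection filter through the mutant arrays alone. Its wild-type level is poorly measured, and mutant kidney 1 was again the highest. The log2 difference was 1.20 ± 0.28 (adjusted p = 0.0115, limma), and 0.93 (adjusted p = 0.00940) without mutant kidney 1.

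*Rab7*, the late endosome Rab that governs fusion with lysosomes, read 2514, 2304, 2323 and 2314 in the mutant and 2746, 2638, 2658 and 2471 in the wild-type kidneys. The ranges overlapped only through mutant kidney 1 and wild-type kidney 4, and the log2 difference of -0.15 had an interval from -0.37 to 0.07 (adjusted p = 0.304, limma). *Rab9*, of the return of mannose-6-phosphate receptors from late endosomes to the Golgi, read 343, 358, 466 and 518 in the mutant and 734, 507, 511 and 497 in the wild-type kidneys. Its groups overlapped and wild-type kidney 1 stood far above the rest, with a log2 difference of -0.40 (adjusted p = 0.130, limma). *Rab12* had a log2 difference of 0.22 (adjusted p = 0.273, limma) and *Rab29*, which recruits the kinase LRRK2, a difference of 0.18 (adjusted p = 0.263, limma).

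*Rab24*, linked to autophagy, was not called by the probe used, with signals of 532, 523, 499 and 531 in the mutant and 586, 593, 665 and 624 in the wild-type kidneys. The groups nevertheless did not overlap, and the log2 difference was -0.24 ± 0.10 (adjusted p = 0.117, limma). Both of its other probes were called lower over all probes, with log2 differences of -0.64 (adjusted p = 0.0149, limma) and -0.32 (adjusted p = 0.0932, limma).

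The secretory granule Rabs, which act in regulated exocytosis, held 1 lower gene out of 5 tested. *Rab3b* read 0.931, 24.1, 22.0 and 14.8 in the mutant and 47.1, 44.0, 37.4 and 39.8 in the wild-type kidneys. Mutant kidney 1 was near 0, no mutant kidney reached the lowest wild-type kidney, and the probe was detected on 2 mutant and on all 4 wild-type arrays. It thus passed the detection filter through the wild-type arrays alone. The log2 difference was -0.96 ± 0.25 (adjusted p = 0.0196, limma), and -0.69 (adjusted p = 0.00694) without mutant kidney 1. *Rab3a* and *Rab3d* had differences of -0.33 and 0.34 (adjusted p = 0.109 and 0.110, limma), and *Rab27b* a difference of 0.37 (adjusted p = 0.112, limma), all just outside the threshold.

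The Rabs of the apical surface, of cell junctions and of the cilium held 2 higher genes of 6 tested. *Rab10*, which encodes an exocytic Rab of basolateral and insulin-regulated traffic, read 703.5, 626, 661 and 614 in the mutant and 567, 476, 440.4 and 533 in the wild-type kidneys. The groups did not overlap, and the log2 difference was 0.36 ± 0.12 (adjusted p = 0.0475, limma). The call was lost without mutant kidney 1, wild-type kidney 2 or wild-type kidney 3, with log2 differences of 0.32, 0.34 and 0.30 and adjusted p-values of 0.105, 0.106 and 0.126 in limma. A further probe of *Rab10* also was called higher, with a difference of 0.63 (adjusted p = 0.0730 in limma over all probes). *Rab13*, which encodes a Rab of tight junction assembly, read 139, 132, 127.5 and 133 in the mutant and 88.9, 115, 109 and 110.2 in the wild-type kidneys. The groups lay close together without overlap, and the log2 difference was 0.29 ± 0.11 (adjusted p = 0.0818, limma). The call depended on the full set of kidneys: without any of them except wild-type kidney 2 the adjusted p was 0.107 to 0.181 in limma, at log2 differences of 0.22 to 0.31. A further probe gave a log2 difference of 0.49 (adjusted p = 0.0276 in limma over all probes).

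The other 4 genes of this group did not pass the test. *Rab8a*, which encodes a Rab of traffic into the primary cilium, read 1660 to 1993 in the mutant and 1636 to 1856 in the wild-type kidneys, with a 95% interval of the log2 difference from -0.18 to 0.30. *Rab8b* had a difference of 0.28 (adjusted p = 0.143, limma). *Rab28* read 1587 to 1872 in the mutant and 1924 to 1973 in the wild-type kidneys, so that its groups did not overlap, with a log2 difference of -0.17 (adjusted p = 0.255, limma). *Rab23*, a negative regulator of Hedgehog signalling, was among the genes near 0.

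Of the Rabs of lysosome-related organelles, 1 of 3 tested genes was called. *Rab32*, which encodes a Rab of melanosome biogenesis and of defence against microbes in macrophages, read 877, 530.4, 607 and 586 in the mutant and 423, 480, 415.5 and 430.3 in the wild-type kidneys. All mutant kidneys were above all wild-type kidneys and mutant kidney 1 was far above the others. The log2 difference was 0.53 ± 0.16 (adjusted p = 0.0351, limma), and 0.38 (adjusted p = 0.0486) without mutant kidney 1. Its relative *Rab38* had a difference of -0.30 (adjusted p = 0.175, limma). Neither of the tested Rab40 genes, which encode adaptors of ubiquitin ligases, was called, and *Rab40c* had a difference of 0.28 (adjusted p = 0.214, limma).

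**Figure D2:**
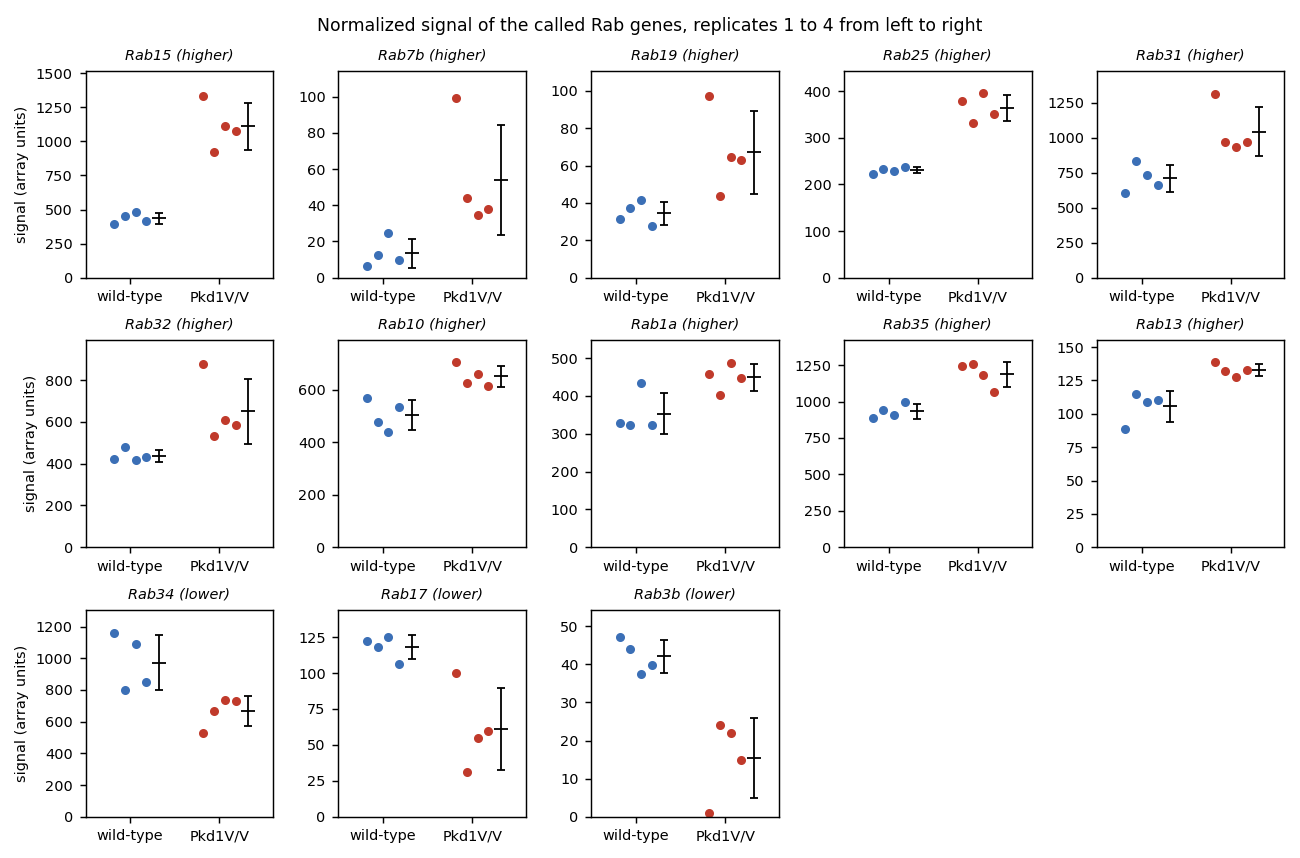
Normalized signal (array units, vertical axis from 0) of the 13 called Rab genes, with a point for each wild-type kidney in blue and each *Pkd1V/V* kidney in red, in the order of replicates 1 to 4, and the mean with its SD (n = 4) as a bar. In all but *Rab1a* the groups did not overlap, and mutant kidney 1 is the highest mutant in *Rab15*, *Rab7b*, *Rab19*, *Rab31*, *Rab32*, *Rab10*, *Rab13* and the lower gene *Rab17*. It is the lowest mutant in the lower genes *Rab34* and *Rab3b*.

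The remaining 13 tested genes, *Rab1b*, *Rab2a*, *Rab5a*, *Rab14*, *Rab18*, *Rab20*, *Rab22a*, *Rab23*, *Rab27a*, *Rab33b*, *Rab40b*, *Rab42* and *Rab43*, had log2 differences from -0.10 to 0.04 and adjusted p-values of 0.741 or more in limma. A further 9 genes, *Rab2b*, *Rab3c*, *Rab9b*, *Rab30*, *Rab33a*, *Rab37*, *Rab39*, *Rab39b* and *Rab44*, were not detected on any array, with no signal above 18.6, and were not tested. The expression of these 9 genes was not detectable above the background of these arrays, which does not show that they are absent.

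For 12 of the 13 called genes the 4 mutant values all lay on the same side of the 4 wild-type values: 9 of the higher genes and all 3 lower genes. Over all tested genes 15.4% lay wholly above and 13.8% wholly below the wild-type kidneys. Among the Rab genes 9 of 48 and 5 of 48 did so, with *Rab24* and *Rab28* as the lower genes that were not called. For such a gene the exact two-sided permutation test over samples gives p = 0.0286, the smallest that 4 against 4 kidneys can give. For *Rab7b* and *Rab3b* this p does not account for how they passed the detection filter, through the group where each was higher.

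In 17 Rab genes more than 1 probe was detected, and in 16 of these all probes differed in the same direction. The exception was *Rab6a*, with probes from -0.04 to 0.24. No gene had probes called in opposite directions, where 15.2% of all 14221 detected probes were called higher and 14.7% lower. *Rab34* had a further probe called lower, with a log2 difference of -0.46 (adjusted p = 0.0139, limma), and another with a difference of -0.31 (adjusted p = 0.114, limma).

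**Figure D3:**
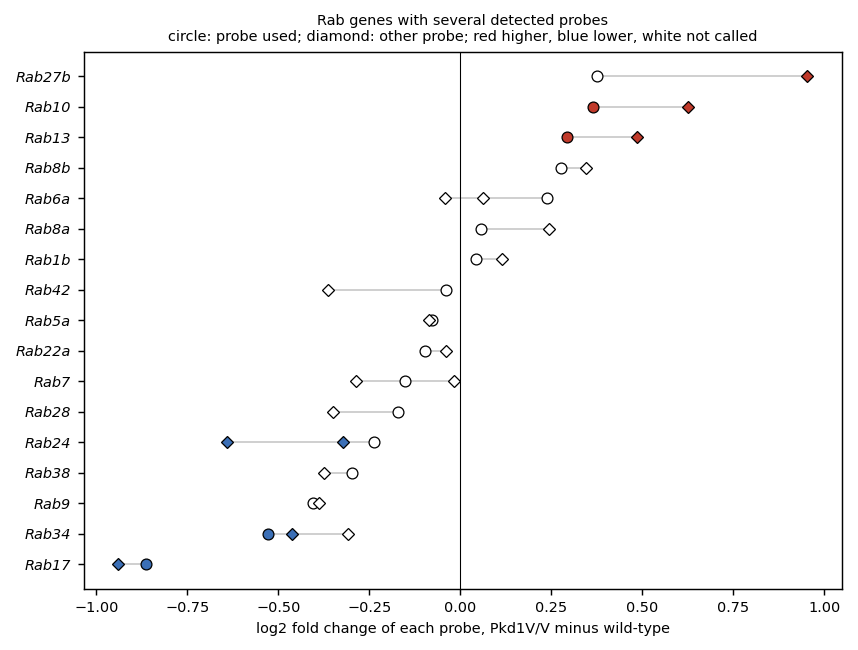
Log2 fold change of every detected probe, *Pkd1V/V* minus wild-type on the horizontal axis, for the 17 Rab genes with several detected probes. Circles are the probes used, diamonds the other probes, and red, blue and white mark higher, lower and not called. Both probes of *Rab17* lie at -0.86 or lower, while those of *Rab10* and *Rab13* lie right of 0.

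The differences of related genes were set against each other. Of 17 pairs of related Rab genes, the difference between the 2 log2 signals in a kidney separated the mutant from the wild-type kidneys in 7, each with an unadjusted exact permutation p of 0.0286, and overlapped in 10. On the log2 scale *Rab25* was higher by 0.93 relative to *Rab11a* and by 0.51 relative to *Rab11b*. *Rab7b* was higher by 1.35 relative to *Rab7*, *Rab32* by 0.83 relative to *Rab38*, and *Rab31* by 0.64 relative to *Rab22a*. *Rab3b* changed by -1.30 relative to *Rab3d*, and *Rab4a* by -0.32 relative to *Rab4b*. *Rab7b* and *Rab3b* each passed the detection filter only through the group where the gene was higher. The permutation p of their pairs does not account for this selection. The pairs that held *Rab1a* with *Rab1b*, *Rab3b* with *Rab3a*, and *Rab34* with *Rab36* overlapped between the groups (exact permutation p = 0.0571, 0.0857 and 0.457). Of the 7 pairs that separated, all but *Rab4a* with *Rab4b* hold a gene that was called by itself, and no share for other pairs of genes was computed, so the count is a description of these pairs.

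Mutant kidney 1 lay at the end of the mutant group in several marker lists and in part of the called genes. Its sums were the lowest of the mutants for proximal tubule (7765 against 13130, 14100 and 15120), thick ascending limb and distal convoluted tubule. The same held for principal cells, endothelium and hepatocytes, while its sums for urothelium and podocytes were the highest. This kidney held the highest macrophage and leukocyte sum, 14800 against 3834 to 6688 in the other mutants. It had the highest mutant signal of the higher genes *Rab7b*, *Rab31*, *Rab32*, *Rab19*, *Rab15*, *Rab10* and *Rab13*, and also of the lower gene *Rab17*. For the lower genes *Rab34* and *Rab3b* it had the lowest mutant signal. It was the highest mutant in 22 of the 48 tested Rab genes, 45.8%, and in 27.4% of all tested genes. It was the lowest mutant in 11 of the 48 Rab genes, 22.9%, and in 32.7% of all tested genes. Without it, 8 Rab genes were called higher and 3 lower. *Rab7b*, *Rab31*, *Rab32*, *Rab19* and *Rab15* kept their call and so did *Rab17*, at -1.08, while *Rab10* (adjusted p = 0.105, limma) and *Rab13* (adjusted p = 0.1496) lost it. *Rab19* then had a log2 difference of 0.53 and *Rab15* one of 1.21. The macrophage and leukocyte sums of the remaining mutants, 3834 to 6688, still lay above the 1526 to 1857 of the wild-type kidneys. Leaving out mutant kidney 1 thus keeps a difference in these markers, and their part in the Rab values was not tested. The sum of the principal cell markers was 8344, 9621, 14390 and 11230 in mutant kidneys 1 to 4, and *Rab25* read 380, 332, 395 and 350.5. Both were highest in mutant kidney 3, and the order of the other 3 mutants differed. Both were also higher in every mutant kidney than in every wild-type kidney, and a link between them was not tested.

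**Figure D4:**
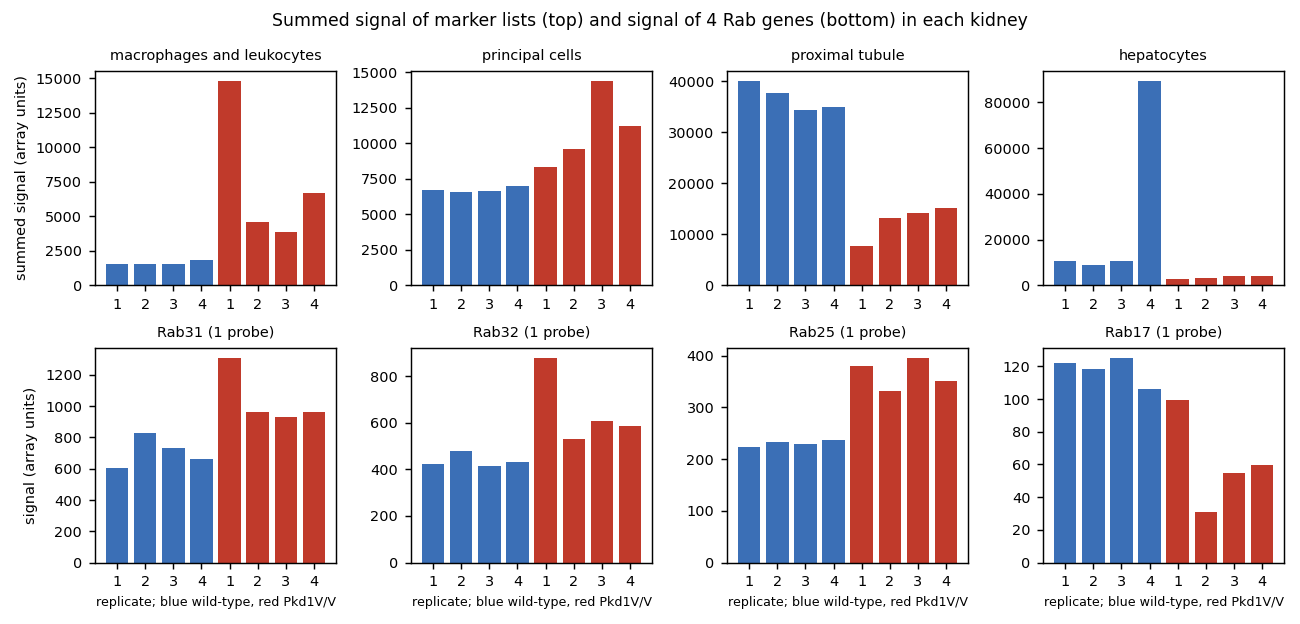
Summed signal of 4 marker lists (top) and signal of the probe used for *Rab31*, *Rab32*, *Rab25* and *Rab17* (bottom), in array units on vertical axes from 0, for wild-type kidneys 1 to 4 in blue and *Pkd1V/V* kidneys 1 to 4 in red. Mutant kidney 1 is the highest for macrophage and leukocyte markers, *Rab31* and *Rab32*, and mutant kidney 3 for principal cell markers and *Rab25*. The order of the other mutants differs between principal cell markers and *Rab25*, and a link was not tested. Wild-type kidney 4 has the highest hepatocyte sum.

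The genes that load, unload and follow the Rabs were taken from fixed lists and stood as follows. None of the 5 tested genes of escort, prenylation and GDP dissociation inhibition was called, with log2 differences from -0.24 to 0.15, and none of 3 tested Rab-like genes. Of 27 tested exchange factors, 3 were higher (11.1%) and 2 lower (7.41%), beside 16.8% and 15.8% of all tested genes, with a median log2 difference of 0.03. They were *Rin1*, an exchange factor of the Rab5 group, at 1.06 (adjusted p = 0.0160, limma), *Dennd1c* at 0.83 (adjusted p = 0.0382) and *Dennd2a* at 0.39 (adjusted p = 0.0797), against *Dennd5b* at -0.60 (adjusted p = 0.0545) and *Dennd3*, an exchange factor of *Rab12*, at -0.55 (adjusted p = 0.0700). In mutant kidneys 1, 3 and 4 *Dennd5b* read 17.9, 17.91 and 9.175, below the lowest signal detected on each array (22.95, 19.01 and 21.81). It thus passed the detection filter through the wild-type arrays, where it was higher, and its adjusted p does not account for this.

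Of 30 tested Rab GTPase-activating proteins, 2 were higher (6.67%) and 4 lower (13.3%), with a median of -0.05. *Tbc1d2*, which acts on *Rab7*, read 521.5, 622, 395 and 421 in the mutant and 153, 263, 207 and 193 in the wild-type kidneys. These groups lay far apart, with a log2 difference of 1.20 ± 0.19 (adjusted p = 0.00173, limma). *Tbc1d9* was also higher, by 0.74 (adjusted p = 0.00461, limma), while *Tbc1d13*, which acts on *Rab35*, was lower at -0.64 (adjusted p = 0.00173, limma), *Grtp1* at -1.07 (adjusted p = 0.00771) and *Evi5* at -0.43 (adjusted p = 0.0147). In wild-type kidneys 1, 3 and 4 *Tbc1d9* read 19.85, 17.45 and 11.55, below the lowest signal detected on each array (22.54, 18.58 and 21.33). It thus passed the detection filter through the mutant arrays, where it was higher, and its adjusted p does not account for this.

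Of 31 tested Rab effectors, 3 were higher (9.68%) and 8 lower (25.8%), beside the same 16.8% and 15.8% of all tested genes, with a median of -0.04. These shares were not tested against those of all genes. *Rilp*, the effector by which *Rab7* recruits dynein to lysosomes, read 80.0, 85.8, 69.6 and 95.6 in the mutant and 170.2, 172, 184 and 206 in the wild-type kidneys. No mutant kidney came near the wild-type range, and the log2 difference was -1.01 ± 0.12 (adjusted p = 0.000459, limma). *Exoc6*, an exocyst subunit, was lower at -0.69 (adjusted p = 0.00137, limma) and *Rilpl2* at -0.55 (adjusted p = 0.00557). The higher effectors were *Mical1* at 0.99 (adjusted p = 0.00877, limma), *Sytl2*, an effector of *Rab27* members, at 0.42 (adjusted p = 0.0288) and *Unc13d* at 0.65 (adjusted p = 0.0619). In wild-type kidneys 1 to 4 *Unc13d* read 12.78, 21.24, 2.3 and 20.99, below the lowest signal detected on each array (22.54, 21.61, 18.58 and 21.33). It passed the detection filter only through the mutant arrays, where it was higher, and its adjusted p does not account for this.

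A fixed list of small GTPases from a family close to the Rabs was set beside them. Of the Arl genes only *Arl1*, *Arl2*, *Arl3* and *Arl16* were tested in it, and it also held *Sar1a*, *Sar1b* and *Trim23*. Of 13 tested genes of this Arf and Arl list, which act in coat assembly and ciliary traffic, *Arf1* alone (7.69%) was called, at 0.31 (adjusted p = 0.0485, limma). Over all tested genes 16.8% were called higher. The median log2 difference of the list was 0.18. The difference between this list and the Rab genes was not tested.

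**Figure D5:**
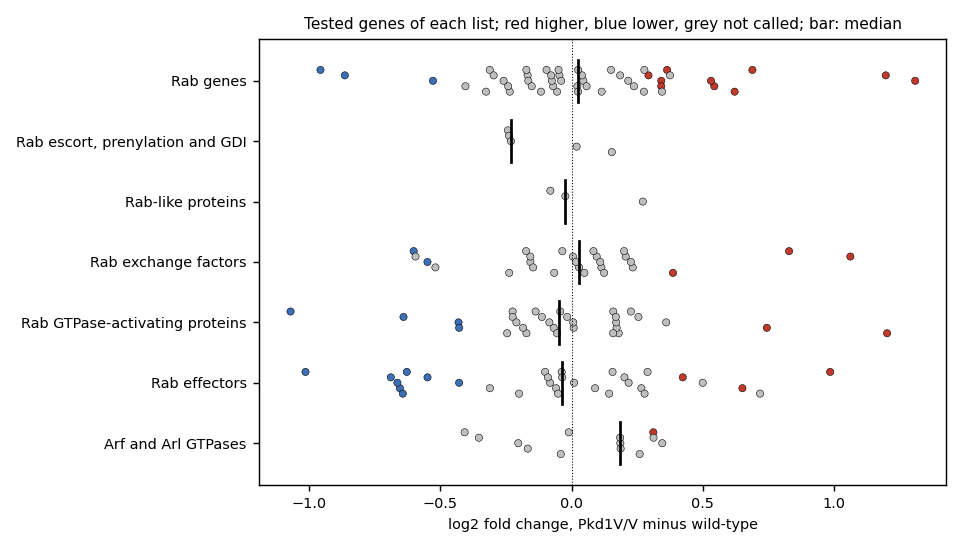
Log2 fold change, *Pkd1V/V* minus wild-type on the horizontal axis, of the tested genes of the Rab list, of the lists of Rab regulators and effectors, and of the Arf and Arl list, with a point for each gene and a bar at the median of each list. Red genes were called higher, blue genes lower and grey genes were not called, and the median is 0.02 for Rab genes and 0.18 for Arf and Arl genes.

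The 250 bases before an annotated start of the gene, from RefSeq on GRCm38.p6, could be matched for 47 of the 57 Rab genes. This start is not always the outermost end of the gene. The window of *Rab17* lies inside the annotated span of the gene and that of *Rab15* overlaps it, as do some windows not printed here. The 5 promoters printed here are those of *Rab15* and *Rab25*, the higher genes with the smallest adjusted p, and of the 3 lower genes, to set both directions side by side, 5′ to 3′ on the strand of the gene. Capitals mark the GC box, GGGCGG, and the AP-1 motif, TGANTCA, on either strand, and neighbouring GC boxes can overlap.
Rab15 promoter, chr12:76822525-76822774, strand -: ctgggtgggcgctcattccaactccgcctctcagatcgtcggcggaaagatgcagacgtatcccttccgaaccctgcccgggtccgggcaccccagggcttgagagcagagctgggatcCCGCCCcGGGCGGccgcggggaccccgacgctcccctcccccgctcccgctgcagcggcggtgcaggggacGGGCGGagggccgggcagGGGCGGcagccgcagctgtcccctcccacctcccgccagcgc
Rab25 promoter, chr3:88548280-88548529, strand -: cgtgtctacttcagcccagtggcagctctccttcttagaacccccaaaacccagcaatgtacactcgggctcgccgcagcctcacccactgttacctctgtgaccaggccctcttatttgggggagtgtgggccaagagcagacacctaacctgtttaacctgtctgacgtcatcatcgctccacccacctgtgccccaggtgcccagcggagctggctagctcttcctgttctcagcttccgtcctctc
Rab3b promoter, chr4:108878820-108879069, strand +: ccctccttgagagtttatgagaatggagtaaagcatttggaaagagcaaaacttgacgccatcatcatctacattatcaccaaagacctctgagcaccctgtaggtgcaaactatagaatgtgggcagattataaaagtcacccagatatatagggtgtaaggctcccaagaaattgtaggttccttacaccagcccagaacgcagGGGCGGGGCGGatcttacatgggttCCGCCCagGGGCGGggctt
Rab17 promoter, chr1:90967668-90967917, strand -: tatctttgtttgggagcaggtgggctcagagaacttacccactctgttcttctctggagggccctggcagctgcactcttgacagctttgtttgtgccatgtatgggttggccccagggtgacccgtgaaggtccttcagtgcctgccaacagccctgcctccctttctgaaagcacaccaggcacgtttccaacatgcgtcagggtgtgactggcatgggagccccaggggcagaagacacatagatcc
Rab34 promoter, chr11:78188177-78188426, strand +: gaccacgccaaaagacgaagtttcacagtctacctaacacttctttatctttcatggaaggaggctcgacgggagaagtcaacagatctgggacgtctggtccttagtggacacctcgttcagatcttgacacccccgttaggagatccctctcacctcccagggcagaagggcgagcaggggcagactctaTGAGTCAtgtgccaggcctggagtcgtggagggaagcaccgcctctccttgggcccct
A GC box on either strand was found in 32 of the 47 Rab promoters, 68.1%, in 33.0% of 27025 promoters of all genes and in 42.7% of 17492 promoters of protein-coding genes. It was found in 5 of 9 promoters of the higher genes, in 1 of 3 promoters of the lower genes and in 22 of the 29 promoters of tested genes that were not called. The median share of G and C was 60.8% in Rab promoters and 52.0% in all promoters. The E-box CACGTG was found in 4 of 47 Rab promoters, 8.51%, against 6.04% of all promoters, and none of these 4 belonged to a called gene. The AP-1 motif was found in that of *Rab34* alone, 2.13%, against 6.85% of all promoters. The hepatocyte nuclear factor 1 half-site GTTAAT was in none of the 47 and in 6.54% of all promoters. A match is a description of the letters in this window.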

How the data were processed

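Total RNA of 4 *Pkd1V/V* and 4 wild-type kidneys, extracted with a column kit per the labels, was hybridised to Illumina arrays. The authors deposited intensities of 25697 probes, background-subtracted but not normalized, the p-value of detection of every probe on each array, and the count of beads behind each value. The deposited tables do not name the software or a genome build. A second table of intensities, quantile-normalized by the authors, served as an alternative.

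Signals were quantile-normalized, floored at 0 and transformed as log2(signal + 16) in R 4.3.3. Symbols came from the platform annotation, updated by gene ID: 23978 probes had 1 symbol and 1719 none. Of several detected probes of a gene, that with the highest mean was used. limma 3.58.1 (lmFit, eBayes) was fitted on all 9833 tested genes, and the procedure was tested on simulated data. Single values were compared by exact two-sided permutation tests. *Rab5b*, *Rab26* and *Rab40a* were not analysed here. A planned comparison with 1 further list is not reported here. A supplementary description in the study gives mutant kidney 4 another identifier than the labels and the data columns do, and the labels were followed.

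The Rab genes, the role groups and the other lists were chosen with earlier results of these data known. The rule for naming gave all 8 signals for each called gene without overlap between the groups, fold change and adjusted p for other called genes, up to 3 genes in each direction from other lists, and related pairs. The full signals of some uncalled genes and further probes were added after their values had been seen. Alternatives were other offsets (4, 64), normalizations, background, filters, probe rule, threshold, variance model and tests, the replicate number as a block, and each kidney left out.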

Additional observations from a re-analysis of the deposited data

Results flagged for a closer look

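In 4 of 96 groups of 4 kidneys, over the 48 tested Rab genes, a kidney stood apart from the others, with a gap to the nearest kidney above Dixon's 95% critical value for 4 samples when divided by the group's range. Chance gives such a gap in about 1 in 20 groups, or 4.8 of 96. The gap was 0.948 of the range for *Rab1a* in wild-type kidney 3, the highest of its group. It was 0.899 for *Rab31* and 0.905 for *Rab7* in mutant kidney 1, the highest in both, and 0.930 for *Rab9* in wild-type kidney 1, again the highest.

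A further probe of *Rab27b*, not used in the comparison of genes because it was dimmer, read 13.5, 25.6, 31.6 and 33.4 in the mutant and 14.6, 7.46, 0 and 1.83 in the wild-type kidneys. Mutant kidney 1 lay below wild-type kidney 1, so the groups overlapped. The probe was detected on 3 arrays, all of mutant kidneys, so it passed the detection filter only through the group where it was higher. Its log2 difference was 0.95 ± 0.23 (adjusted p = 0.0162 in limma over all probes), a p that does not account for this selection. The probe used gave 0.37 (adjusted p = 0.112, limma).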

How the results depend on the processing

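All 13 called Rab genes kept their direction in every alternative that tested them, and 9 kept their call in each of the 8 fits without a kidney: *Rab15*, *Rab17*, *Rab19*, *Rab25*, *Rab31*, *Rab32*, *Rab35*, *Rab3b* and *Rab7b*. The number of higher Rab genes was 8 to 9 without a kidney and 8 to 14 in the other alternatives, and that of lower Rab genes 2 to 4 without a kidney. Beside the 3 lower genes of the comparison, 6 were lower with no detection filter, where 57 genes were tested, 6 with array weights and an intensity trend, 11 by SAM at delta 1.0, and, by the methods' t-test, 8 at its unadjusted threshold and 6 after Benjamini-Hochberg adjustment. The cause was not tested. Over all genes SAM called 2261 higher and 1909 lower, the fit with no detection filter 1504 and 1411, and the t-test at its unadjusted threshold 1823 and 1660, so the low share of lower Rab genes did not hold under these alternatives. Over all genes the range without a kidney was 1314 to 1530 higher and 1246 to 1501 lower. Without mutant kidney 4, whose identifier differs between sources, 8 Rab genes were higher and 4 lower. Without mutant kidney 1 and wild-type kidney 4 together, an alternative chosen after seeing the data, 9 Rab genes were higher and 3 lower. Of the 35 uncalled genes 13 were called in at least 1 alternative, while the 13 genes near 0 were called in none and each changed sign in some.

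With the replicate number as a block, 8 Rab genes were higher and 3 lower, and *Rab13* (adjusted p = 0.152, limma) and *Rab35* (adjusted p = 0.104) lost their call. Samples with the same number correlated at -0.22, 0.31, 0.18 and -0.25 in their deviations from the group means, so the numbers were not taken to pair the kidneys.

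Genes near the background are the least certain: *Rab7b* and *Rab3b* were not tested when detection on all 8 arrays was required, and the 9 undetected Rab genes have no measured difference. With 4 arrays in a group, differences within the intervals given cannot be told from 0.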

Other observations

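The spread between the kidneys of a group was small for the Rab genes: the median SD of log2 values was 0.18 in mutant and 0.17 in wild-type kidneys for the 48 tested Rab genes, and 0.22 and 0.21 for all tested genes. In the wild-type group, a pattern seen in the values of *Rab34* recurred. In 15 of the 48 Rab genes, 31.2%, wild-type kidneys 1 and 3 both lay above wild-type kidneys 2 and 4, against 19.3% of all tested genes, and in 11 genes, 22.9% against 25.3%, they both lay below. The 15 were *Rab1a*, *Rab1b*, *Rab5a*, *Rab5c*, *Rab6a*, *Rab7*, *Rab9*, *Rab11a*, *Rab17*, *Rab18*, *Rab23*, *Rab27b*, *Rab34*, *Rab40b* and *Rab43*, and so include the gene in which the pattern was seen. *Rab5a* read 691 and 653 in wild-type kidneys 1 and 3 and 448 and 479 in wild-type kidneys 2 and 4. *Rab1b* read 682 and 644 against 397 and 474.5. The split was noticed in these data, and nothing in the labels sets these kidneys apart.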
